A study of Mus musculus with 319 samples.

Results

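Muscle arrays of F2 mice, 319 in all, were divided into 3 classes by the measured level of Ifi202b, an interferon-inducible gene on distal chromosome 1. The low class held 75 arrays (23.5%), the middle class 168 (52.7%) and the high class 76 (23.8%), which together are all 319 arrays of the series. The members of each class were chosen by the deposited log10 ratio of the single Ifi202b probe. In the log2 units used for all values, an array was low under -1.15, high over 0.27 and middle between these limits. C57BL/6J and C3H/HeJ were the parental strains of these mice, and each was on an ApoE null background, so every class lacks functional ApoE. Females and males ate a high-fat Western diet from 8 to 24 weeks of age. RNA of each animal was labelled with Cy3 and hybridised against Cy5-labelled RNA of a pool made from all samples. By the labels 2 arrays carry the same animal number, 227, and each was kept as an array of its own. The labels give no genotype at any locus, name no particular muscle and place all arrays in 1 group, so the classes are ranges of a measured value and not genotypes. Since the pool is of the same tissue, a ratio shows how an animal differs from the average animal and not whether a gene is expressed, and muscle markers could not be used to check the tissue label.

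Ifi202b belongs to the Ifi200 family, whose members lie next to one another on distal chromosome 1 and encode proteins with a HIN domain that binds DNA. Several members are induced by interferons, and the family takes part in sensing of nucleic acid, control of cell division and differentiation. In mice Ifi202b is known as a candidate gene for susceptibility to lupus and for traits of fat tissue, and its level is known to differ strongly between inbred strains. A gene next to a variable locus can differ with it in an intercross because neighbouring alleles are inherited together, whereas genes on other chromosomes are shuffled independently. Interferon signalling is a separate source of variation, acting on genes across the genome through the transcription factors of the STAT and IRF families.

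Ifi202b itself, which fixed the classes, had a lowest, median and highest log2 ratio of -2.84, -1.99 and -1.20 in the low class, -1.13, -0.34 and 0.26 in the middle class and 0.27, 0.76 and 2.86 in the high class. The SD within a class was 0.37, 0.35 and 0.48 in the same order. The classes do not overlap because the rule made them so. At the lower limit the nearest arrays were at -1.37, -1.27 and -1.20 inside the low class and at -1.13, -1.04 and -1.04 inside the middle class. At the upper limit they were at 0.259, 0.261 and 0.262 in the middle class and at 0.272, 0.277 and 0.297 in the high class. The lower limit lies in a sparse zone, with 9 arrays within 0.05 log10 units of it, and the upper limit lies in a dense one, with 35 arrays within the same distance. The histogram of Ifi202b by class shows a dip at the lower limit and none at the upper limit.

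**Figure D1:**
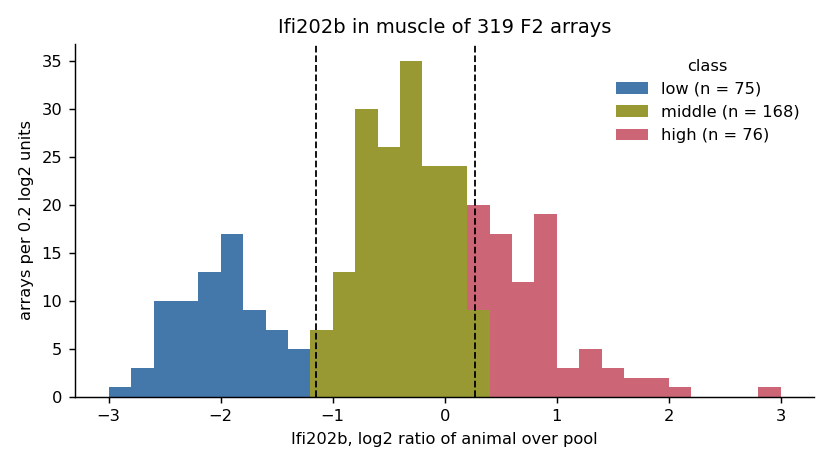
Histogram of the Ifi202b log2 ratio (horizontal axis, animal over pool) over 319 arrays, counted in bins of 0.2 log2 units and coloured by class. The dashed lines are the limits at -1.15 and 0.27. The count of arrays dips at the lower limit, and the upper limit cuts through the shoulder of the middle group.

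The arrays gave values for 23382 probes, and the 23190 that had one on 80% or more of the arrays were tested. Within an array the ratios had an SD between 0.213 and 1.08. The direction of the ratio was read from Eif2s3y, a Y-linked gene, which lay at a median of -5.62 on 164 arrays and at 1.08 on 155, so that a negative value means that the animal had less of an RNA than the pool. Over 50721 pairs of arrays the correlation across all probes ran from -0.601 to 0.848 with a median of 0.27, and it was under -0.3 in 3735 pairs. Eif2s3y was above -2 on 58.7% of low, 46.4% of middle and 43.4% of high arrays. A score of B and T cell markers was split at the cut with the largest variance between its sides. Each side had to hold 15 or more arrays. The cut is called the lymphocyte gap below, although no empty stretch of the score was looked for. Above it lay 57 arrays. These made up 21.3% of the low, 9.52% of the middle and 32.9% of the high class. In blocks of 40 consecutive animal numbers the share of high arrays ran from 10.5% to 43.2%.

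Across the classes, 8375 of 23189 probes other than that of Ifi202b had a slope that passed the test, which is 36.1% of the probes (limma on class 0, 1 and 2, Benjamini-Hochberg adjusted p under 0.05). Slopes are log2 units per class step, with standard errors over 319 arrays. Of these probes 2986 (12.9%) were higher and 5389 (23.2%) were lower in higher classes. With each array's median subtracted the split turned to 3629 higher and 3070 lower, and with Eif2s3y in the fit 8219 probes passed. The genes with the steepest slopes on chromosome 1 are described before those elsewhere.

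The neighbours of Ifi202b in its own family rose with class, but their probes did not all move. Only Ifi203, Ifi204 and Ifi205 of the 17 family genes listed were measured beside it, with 6 probes, of which 4 had a called positive slope, 0 a negative one and 2 did not pass. Ifi204, a DNA-binding family member 4 protein-coding genes before Ifi202b in gene order, had a lowest, median and highest ratio of -2.43, -0.46 and 0.73 in the low class, -1.62, -0.34 and 0.55 in the middle class and -0.34, 0.40 and 2.34 in the high class on its most responsive probe. The classes overlapped, and the high class stood above the others. Its slope was 0.46 ± 0.040 (SE, adjusted p = 2.45e-22). A second Ifi204 probe rose by 0.32 ± 0.039 per class and the third had a slope of -0.036 ± 0.022 (adjusted p = 0.182). Ifi203, the gene just before Ifi202b, had -2.66, -0.72 and 1.35 in the low class, -0.98, -0.39 and 1.56 in the middle class and -0.70, 0.09 and 1.25 in the high class. The medians climbed with each class while the ranges overlapped widely. The slope of this probe was 0.33 ± 0.041 (adjusted p = 9.47e-12), and the other Ifi203 probe had -0.042 ± 0.024 (adjusted p = 0.167). Ifi205, just after Ifi202b, had medians of -0.14, -0.16 and 0.17 in the low, middle and high class and a slope of 0.16 ± 0.031 (adjusted p = 5.83e-05). None of the 6 probes passed between the middle and low classes, and 4 were higher and 1 lower in the high than in the middle class. Of all probes 0.664% passed between middle and low and 59.1% between high and middle. With macrophage, B cell and T cell scores in the fit, 2 of the 6 were higher from low to middle and 2 from middle to high. In that fit 3 of the 6 had a called positive slope. It called 0.367% of all probes from low to middle, 17.1% from middle to high and 2.40% over the classes. Family members are similar in sequence, and the share of a probe's signal that comes from a relative was not tested.

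The promoters of the family are shown because probes of its measured members moved with Ifi202b. The windows run from 250 bases before to 50 after an annotated start and come from RefSeq, build GRCm38.p6. Capitals mark the interferon-stimulated response element, searched as GAAA, any 2 bases and GAAA, or the STAT-binding element, searched as TTCNNNGAA, each on both strands.
Ifi202b promoter, chr1:173982795-173983094, minus strand: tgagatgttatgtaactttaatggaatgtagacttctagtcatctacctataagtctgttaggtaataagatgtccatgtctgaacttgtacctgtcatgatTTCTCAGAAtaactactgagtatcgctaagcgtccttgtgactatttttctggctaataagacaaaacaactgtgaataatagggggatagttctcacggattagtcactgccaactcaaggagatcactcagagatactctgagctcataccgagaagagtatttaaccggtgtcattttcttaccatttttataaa
Ifi203 promoter, chr1:173942443-173942742, minus strand: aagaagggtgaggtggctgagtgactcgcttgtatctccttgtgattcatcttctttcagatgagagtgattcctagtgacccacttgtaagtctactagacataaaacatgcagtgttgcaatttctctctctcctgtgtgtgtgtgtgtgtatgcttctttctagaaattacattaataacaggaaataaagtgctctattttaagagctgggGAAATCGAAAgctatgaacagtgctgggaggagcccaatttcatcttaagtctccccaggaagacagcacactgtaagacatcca
Ifi205 promoter, chr1:174031706-174032005, minus strand: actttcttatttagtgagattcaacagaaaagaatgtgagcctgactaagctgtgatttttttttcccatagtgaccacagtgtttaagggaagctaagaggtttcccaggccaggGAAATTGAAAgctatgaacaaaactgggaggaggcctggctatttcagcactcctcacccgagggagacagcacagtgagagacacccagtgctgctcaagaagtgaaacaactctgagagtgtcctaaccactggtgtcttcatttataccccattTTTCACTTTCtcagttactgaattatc
Of 14 family windows from 12 genes, 10 windows from 9 genes held the interferon-stimulated response element, against 3.44% of all 32851 windows in the table. Ifi202b held none in its window and had the STAT-binding element at -148, which 8.30% of all windows hold and no other family window did. The Ifi203 window shown, from the downstream of its annotated starts, held the response element at -35, and the Ifi205 window held it at -134 and 23. The Ifi203 window of the upstream start, not shown, held neither element. A match is a stretch of letters in the reference strain's sequence and not a shown binding site.

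Genes elsewhere on chromosome 1 moved in both directions, and the 15 with the largest statistics had 8 higher and 7 lower slopes, between -0.57 and 0.49. These genes were picked for their slopes, so their count is a description. Ppox, the mitochondrial enzyme of the next to last step of haem synthesis, lies 67 genes before Ifi202b. It had a lowest, median and highest ratio of -0.043, 0.36 and 0.84 in the low class, -0.57, 0.072 and 0.45 in the middle class and -0.74, -0.29 and 0.21 in the high class. The middle class lay between the others, and 67 of 76 high arrays were below every low array. Ppox fell by 0.32 ± 0.015 per class (adjusted p = 6.71e-62), with -0.32 ± 0.025 between the high and middle classes and -0.32 ± 0.025 between the middle and low classes. Its middle class deviated from the mean of the outer classes by 0.00020 (adjusted p = 0.994).

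Usf1, a transcription factor that binds E-box motifs in genes of lipid and glucose metabolism, lies 58 genes before Ifi202b. It had -1.08, -0.45 and 0.18 in the low class, -0.84, 0.075 and 0.89 in the middle class and -0.34, 0.35 and 1.02 in the high class. The low class stood apart most, with 58 of 75 low arrays below every high array. Its slope was 0.40 ± 0.022 (adjusted p = 1.09e-48), with a step of 0.55 ± 0.036 from low to middle and 0.26 ± 0.036 from middle to high. Its other probe had a slope of 0.018 ± 0.0093 (adjusted p = 0.121). Dusp12, a dual-specificity phosphatase 85 genes before Ifi202b, had -0.998, -0.34 and 0.18 in the low class, -1.11, 0.071 and 0.61 in the middle class and -0.23, 0.26 and 0.91 in the high class. Here too the low class was set apart, and both probes agreed in sign, with slopes of 0.30 ± 0.019 and 0.31 ± 0.021. Dusp23, another dual-specificity phosphatase and only 24 genes away, went the opposite way, with medians of 0.37, 0.15 and -0.36 in the low, middle and high class and a slope of -0.36 ± 0.023 (adjusted p = 2.49e-37).

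Nme7, a member of the nucleoside diphosphate kinase family 135 genes before Ifi202b, had the widest step between the low and middle classes among these 15 genes. It had -1.53, -0.84 and 0.53 in the low class, -1.45, 0.097 and 1.18 in the middle class and -1.32, 0.27 and 2.46 in the high class. The middle class was higher than the low class by 0.78 ± 0.074 (adjusted p = 6.04e-19), and the high class exceeded the middle class by only 0.21 ± 0.074 (adjusted p = 0.00948). Gas5, a non-coding host gene of small nucleolar RNAs, lies next to the gene 174 places before Ifi202b and had medians of 0.25, -0.28 and -0.80 in the low, middle and high class. Its slope was -0.39 ± 0.039 (adjusted p = 2.92e-18). Phlda3, a p53 target that restrains Akt signalling, lies 296 genes away and had medians of 0.56, 0.029 and -0.62 in the low, middle and high class. Its slope of -0.57 ± 0.048 (adjusted p = 4.88e-24) was the steepest of the 15.

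The other linked genes had smaller or more scattered differences. Slc35f5, a solute carrier 404 genes before Ifi202b, rose by 0.43 ± 0.052 per class. Fmo1, a flavin monooxygenase, rose by 0.18 ± 0.020, Pign of glycolipid anchor synthesis by 0.13 ± 0.015 and Cep170, a centrosomal protein gene, by 0.22 ± 0.029. Pld5, of the phospholipase D family, rose by 0.14 ± 0.017, with a step of 0.24 ± 0.028 from low to middle, while its step from middle to high was 0.030 ± 0.028 (adjusted p = 0.358). Rgs5, a regulator of G protein signalling found in pericytes, fell by 0.28 ± 0.037 per class, Bpnt1, a nucleotidase, by 0.14 ± 0.018 and Dcaf8, a ubiquitin ligase adaptor, by 0.13 ± 0.017. Dcaf8 was the reverse case of Pld5, with -0.0092 ± 0.027 between the middle and low classes and -0.25 ± 0.027 between the high and middle classes. Of the 15 genes, 13 passed between middle and low and 14 between high and middle. All 15 passed when macrophage, B cell and T cell scores were added to the fit.

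**Figure D2:**
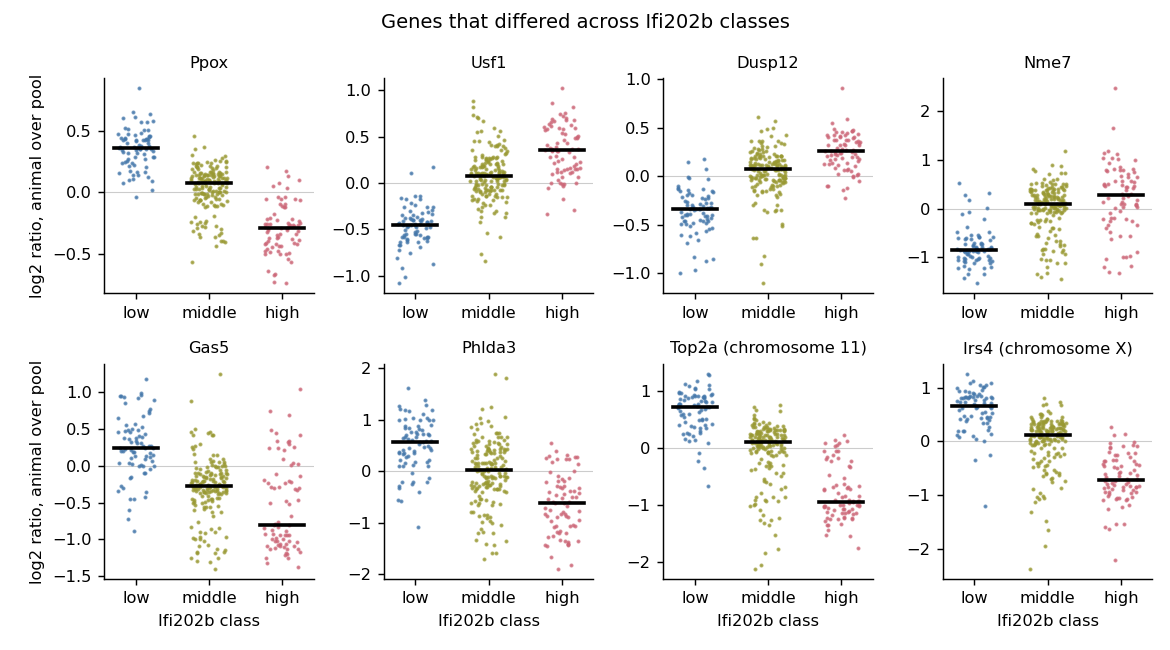
Log2 ratio, animal over pool (vertical axis), of 6 genes of chromosome 1 and of Top2a and Irs4 on other chromosomes by Ifi202b class (75 low, 168 middle and 76 high arrays). Each point is an array and each black bar a class median. Ppox has medians of 0.36, 0.072 and -0.29 in the low, middle and high class, while Nme7 rises mostly between the low and middle classes.

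The lower and the upper step, which share the middle arrays, were also tested apart. Between the middle and low classes 154 of 23189 probes passed (0.664%), 85 higher (0.367%) and 69 lower (0.298%), a split that turned to 52 higher and 81 lower with array medians subtracted. Of the 94 with a gene name, 36 lay on chromosome 1 (38.3%), which holds 5.78% of the named probes tested. Within 100 genes of Ifi202b 14 of 134 probes passed (10.4%), on the rest of chromosome 1 22 of 590 (3.73%) and on other chromosomes 58 of 11804 (0.491%). Closer in, 1 of 24 probes passed within 25 genes, 4 of 31 between 25 and 50 and 9 of 79 between 50 and 100 genes away. With the immune cell scores in the fit 85 probes passed (0.367%), and 34 of the 48 named ones were on chromosome 1 (70.8%). Without the 57 arrays above the lymphocyte gap 99 passed, and 30 of 54 named ones were there (55.6%). With quantile normalization 665 passed, and 68 of 424 named ones were there (16.0%).

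The upper step had far more calls, spread over the genome. Between the high and middle classes 13708 probes passed (59.1%), 4413 higher (19.0%) and 9295 lower (40.1%), and 458 of the 7559 named ones lay on chromosome 1 (6.06%), close to that chromosome's 5.78% of the probes tested. Within 100 genes of Ifi202b 97 of 134 probes passed (72.4%), on the rest of chromosome 1 361 of 590 (61.2%). On other chromosomes 7101 of 11804 passed (60.2%). With array medians subtracted the split was 5755 higher and 5575 lower. The count dropped to 4693 without the arrays above the lymphocyte gap and to 3968 (17.1%) with the immune cell scores. Of the 2126 named ones in that last fit 161 were on chromosome 1 (7.57%). Within 100 genes of Ifi202b that fit called 49 of 134 probes (36.6%), and on other chromosomes 1965 of 11804 (16.6%). To see whether the middle class lay midway, it was set against the outer classes together. The middle class deviated from the mean of the outer classes in 10578 probes (45.6%), in 1085 without the arrays above the lymphocyte gap and in 266 with the immune cell scores. The 8 genes with the largest such deviation were Adgre1, Clec4a2, Selenop, Ptpro, Evi2a, Lyz1, Gbp2 and Tlr2, and each was lowest in the middle class and highest in the high class by its median. Over the classes as a slope, 556 probes passed with the immune cell scores (2.40%), among them 28 of 134 within 100 genes of Ifi202b (20.9%) and 213 of 11804 on other chromosomes (1.80%). By distance that fit called 25.0% of probes within 25 genes, 25.8% between 25 and 50, 17.7% between 50 and 100, 10.6% between 100 and 200 and 6.34% beyond.

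**Figure D3:**
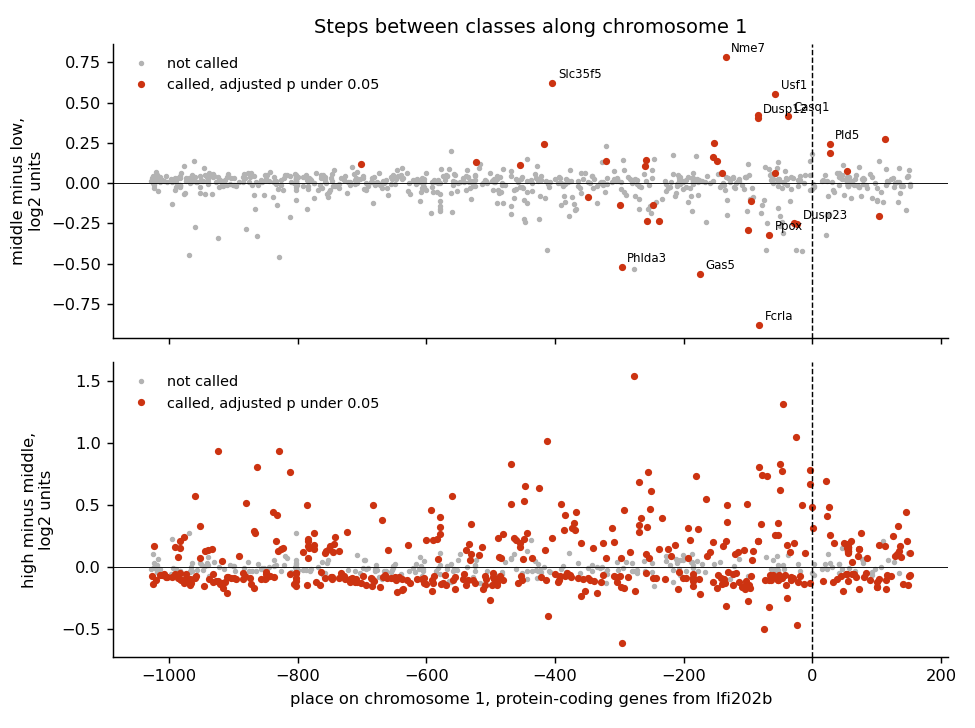
Step between classes in log2 units (vertical axes; upper panel middle minus low, lower panel high minus middle) for 724 probes of chromosome 1, by place in protein-coding genes from Ifi202b at the dashed line (horizontal axis). Red points passed the test at an adjusted p under 0.05. In the upper panel 36 probes are red, many of them within 200 genes of Ifi202b, and in the lower panel 458 are red along the whole chromosome.

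Interferon response genes did not climb evenly with class. Of 35 probes for 34 type I interferon response genes, 21 were higher and 2 lower over the classes, and the median slope was 0.072, against -0.011 for all probes. From low to middle 0 were higher and 4 lower with a median of -0.18, and from middle to high 28 were higher and 2 lower with a median of 0.39. The median over all probes was 0.012 in the lower step and -0.037 in the upper step. Of all probes 12.9% were higher and 23.2% lower over the classes. In the lower step 0.367% were higher and 0.298% lower, and in the upper step 19.0% and 40.1%. Of the 35 probes, 33 had a middle mean below the low mean and 30 a high mean above the middle mean. Both steps share the middle arrays, so these are not independent counts. The summed level of the list, as the mean ratio of its genes, had a lowest, median and highest of -0.70, -0.25 and 0.81 in the low class, -0.65, -0.32 and 0.59 in the middle class and -0.46, -0.069 and 0.97 in the high class. The high class was highest by its median, the middle class lowest, and all ranges overlapped.

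Irf7, the transcription factor that amplifies the type I response, had medians of -0.83, -1.04 and -0.45 in the low, middle and high class. It was higher in the high than in the middle class by 0.76 ± 0.11 (adjusted p = 2.31e-09), while the middle class differed from the low class by -0.40 ± 0.11 (adjusted p = 0.0699). Oas1g, of the oligoadenylate synthetases that activate RNase L, had a step of 0.63 ± 0.075 from middle to high and of -0.24 ± 0.076 from low to middle (adjusted p = 2.13e-13 and 0.115). Ifit2, which restrains translation of viral RNA, had 0.58 ± 0.071 and -0.22 ± 0.071 in the same order (adjusted p = 1.08e-12 and 0.126). Rtp4, a chaperone-like protein induced by interferon, had 0.65 ± 0.070 and -0.26 ± 0.071 (adjusted p = 1.43e-15 and 0.041). Each of these genes had its lowest median in the middle class. For Irf7 the middle class lay 0.58 below the mean of the outer classes (-0.58, adjusted p = 7.07e-08). The list's lowest slopes belonged to Oas3 (-0.030 ± 0.010, adjusted p = 0.0167) and Xaf1, an apoptosis regulator (-0.047 ± 0.012, adjusted p = 0.00103). The median slope over all probes was -0.011. With array medians subtracted 1 type I probe was called lower over the classes, in place of 2.

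Of 17 interferon gamma response probes, 13 had a middle class that passed as below the mean of the outer classes and 0 as above it. The median step was -0.23 from low to middle and 0.39 from middle to high. Of the 17, 7 were higher and 0 lower over the classes, 0 higher and 4 lower from low to middle, and 13 higher and 0 lower from middle to high. Among all probes 45.6% had a middle class that deviated in either direction. By direction, 2082 of 12528 named probes passed as below the mean of the outer classes and 3861 as above it. Over the classes 12.9% of all probes were higher and 23.2% lower. The shares were 0.367% and 0.298% in the lower step and 19.0% and 40.1% in the upper step. Cxcl10, a chemokine that attracts activated T cells, had -3.03, -1.40 and 3.11 in the low class, -3.01, -1.83 and 1.22 in the middle class and -2.34, -1.06 and 2.77 in the high class. The ranges overlapped over most of their length. It was 1.15 ± 0.16 higher in high than in middle arrays (adjusted p = 1.04e-10) and 0.66 lower in middle than in low arrays (-0.66 ± 0.16, adjusted p = 0.0137). Its middle class lay below the mean of the outer classes by -0.91 (adjusted p = 2.33e-09). Cxcl9, its close relative, had steps of 1.14 ± 0.14 and -0.64 ± 0.14 (adjusted p = 1.46e-12 and 0.00398). Irf8, a factor of myeloid and B cells, rose by 0.62 ± 0.089 in the upper step, and the GTPase gene Tgtp1 by 0.62 ± 0.11, whereas Irgm2 (0.11 ± 0.085, adjusted p = 0.246) did not pass in it. The probes of Iigp1, a GTPase that acts on parasite vacuoles, disagreed, with an upper step of -0.061 ± 0.037 on the probe with the lower slope (adjusted p = 0.142) and of 0.55 on the other, looked at after its values were seen (adjusted p = 1.96e-05). Of 14 antigen processing probes 9 were higher and 0 lower over the classes, 12 were higher and 2 lower in the upper step, and 0 were higher and 2 lower in the lower step. B2m, the light chain of MHC class I, rose by 0.75 ± 0.092 in the upper step, H2-K1, a heavy chain, by 0.74 ± 0.079, and Psmb8 and Psmb9, immunoproteasome subunits, by 0.74 ± 0.096 and 0.67 ± 0.092. The 2 probes called lower were those of Tapbp, which helps load peptide onto class I molecules (-0.10 ± 0.039), and Nlrc5, a class I transactivator (-0.032 ± 0.014), beside a median of -0.037 over all probes. With array medians subtracted 12 antigen processing probes were higher and 0 lower, so both of these calls ended.

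The interferon counts moved with the settings and with markers of other cells. They are read beside the counts over all 23189 probes in the same fit. Quantile normalization called 2285 of these higher and 3512 lower over the classes. Without the arrays above the lymphocyte gap 2094 were higher and 2835 lower. With the immune cell scores 299 were higher and 257 lower. The outer classes alone called 8088 in either direction and blocks of animal number 5960. Over the classes, 21 type I probes were called higher, 12 with quantile normalization, 13 with the outer classes alone, 11 with blocks of animal number in the fit and 0 with the immune cell scores. Without the 57 arrays above the lymphocyte gap the upper step had 23 higher and 1 lower type I probe, and the lower step had 0 called. Of all probes 1966 were higher and 2727 lower in that upper step, and 99 passed in the lower step. With quantile normalization the lower step had 22 type I probes lower and 0 higher, beside 382 lower and 283 higher of all probes. With the immune cell scores the upper step had 3 type I probes higher and 2 lower, and the lower step 0. In that fit 17.1% of all probes passed in the upper step and 0.367% in the lower step. The type I count in the upper step was not above that share. Over the classes, the 7 interferon gamma probes called higher became 2 with quantile normalization, 1 higher and 1 lower without the arrays above the lymphocyte gap, and 0 higher and 1 lower with the immune cell scores. In the lower step the 4 gamma probes called lower became 7 with quantile normalization, 0 without those arrays and 1 with the scores. In the upper step 8 gamma probes were higher and 0 lower without those arrays, and 2 higher and 1 lower with the scores. For antigen processing, the 9 called higher over the classes became 6 with quantile normalization, 4 without those arrays and 1 with the scores. Its upper step had 8 higher and 0 lower without those arrays and 1 higher and 0 lower with the scores. Its lower step had 1 higher and 9 lower with quantile normalization and 0 called without those arrays or with the scores. Ifi202b is itself inducible by interferon, and the parts of the interferon level and of the inherited level in an array's class were not tested.

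**Figure D4:**
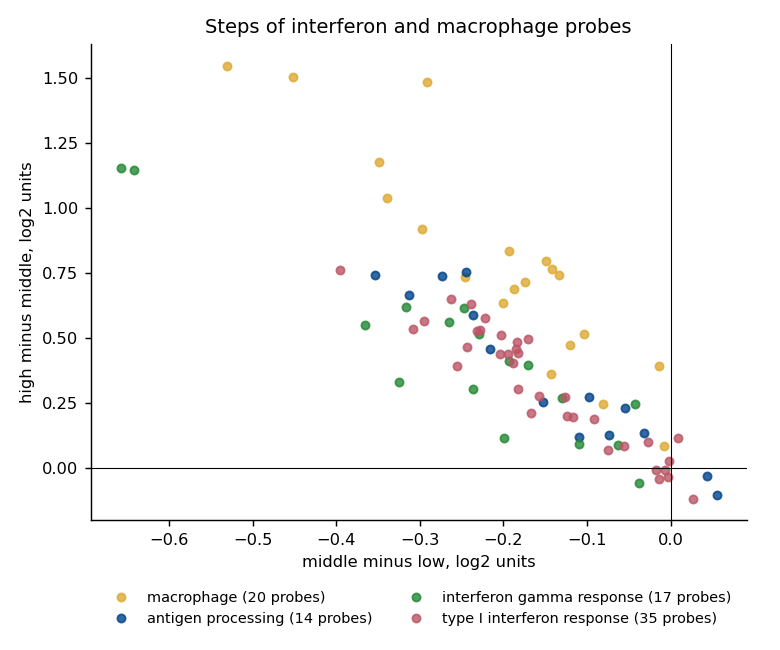
Step from the low to the middle class (horizontal axis) against the step from the middle to the high class (vertical axis), both in log2 units, for the probes of 4 lists, 1 point each. Most points lie in the upper left part, with the middle mean under both outer means, and Cxcl9 and Cxcl10 lie farthest left at -0.64 and -0.66. Both steps share the middle arrays, so the axes are not independent.

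Macrophage markers moved with the interferon genes. Of 22 macrophage genes listed 20 were measured with 1 probe each, 17 of them off chromosome 1. All 20 probes had a called positive slope with a median of 0.29, where 12.9% of all probes were called higher. In the lower step 0 of the 20 passed, with a median of -0.18, and in the upper step 20 were higher, with a median of 0.74. Of all probes 0.664% passed in the lower step, and in the upper step 19.0% were higher and 40.1% lower. The mean ratio of the list had a lowest, median and highest of -1.83, -0.58 and 0.96 in the low class, -1.74, -0.74 and 0.79 in the middle class and -1.0, -0.13 and 1.59 in the high class. Adgre1, which encodes the F4/80 antigen of mouse macrophages, had medians of -0.38, -0.47 and 0.37 in the low, middle and high class and a step of 0.79 ± 0.069 from middle to high (adjusted p = 5.48e-22). Without the arrays above the lymphocyte gap 19 of the 20 macrophage probes were still higher in the upper step, as were 1966 of all 23189 probes. With all arrays, B cell probes were higher in 12 of 14 cases in the upper step. The B cell list had ranges of -1.52 to 1.27 in low, -1.48 to 1.26 in middle and -1.38 to 1.60 in high arrays. T cell probes were higher in 7 and lower in 1 of 13, and their list ran from -0.88 to 1.17, from -0.93 to 1.00 and from -0.89 to 1.24 in the same order. In ratios to a pool no marker can be placed at 0. The part of other cells in the interferon steps was not tested, and in whole muscle a larger number of cells and more RNA per cell cannot be told apart.

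In the upper step 19.0% of all probes were higher and 40.1% lower, and the other lists are read against these shares. Of 6 MHC class II probes 6 were higher. In all 6 the middle class passed as below the mean of the outer classes, as it did in 2082 of 12528 named probes. With the immune cell scores 1 of the 6 was higher in the upper step, where 17.1% of all probes passed in either direction. The list was led over the classes by H2-Eb1 with medians of -1.33, -1.62 and -0.61 in the low, middle and high class. Nucleic acid sensing genes had 9 higher and 2 lower of 16, with Tlr7, an endosomal RNA receptor, higher by 0.43 ± 0.044. NF-kB targets had 9 higher and 1 lower of 16, with Vcam1, an adhesion molecule of inflamed vessels, higher by 0.79 ± 0.098. In the lists that follow, the share called higher was near or under that of all probes. Neutrophil markers had 3 higher and 2 lower of 12, keratinocyte markers 2 higher and 1 lower of 9, endothelial markers 1 higher and 5 lower of 11, and slow fibre genes 2 higher and 1 lower of 14. Of the erythroid markers 0 of 6 passed (limma, adjusted over all probes), and Epb42, a red cell membrane protein gene, had a slope of 0.14 ± 0.077 with an adjusted p of 0.153.

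**Figure D5:**
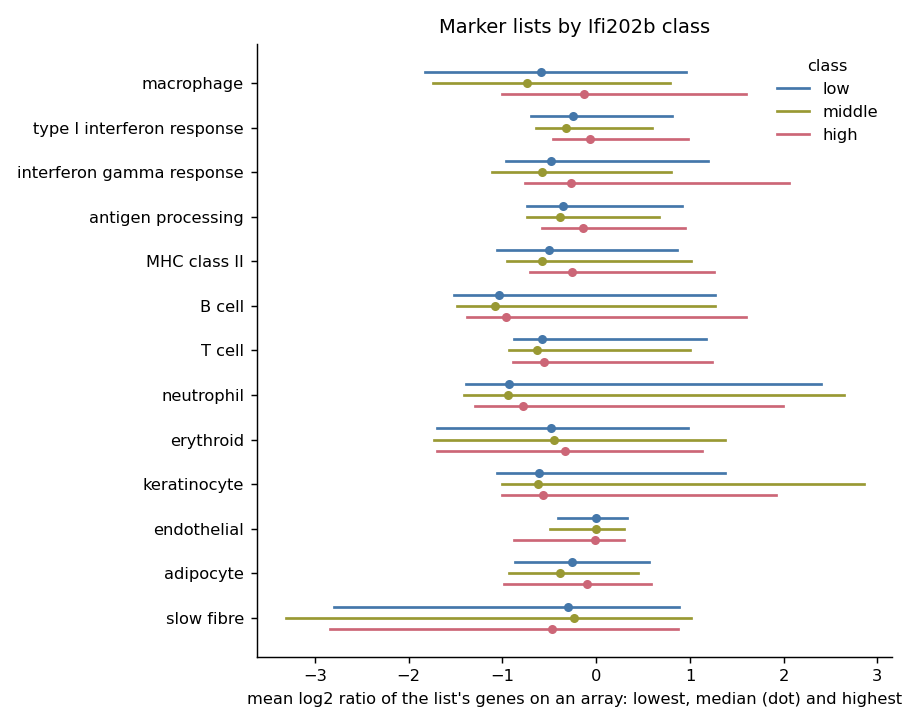
Mean log2 ratio of the genes of 13 lists on an array (horizontal axis), by class from low to high in each list. The dot is the class median and the line runs from the lowest to the highest array. Macrophage medians are -0.58, -0.74 and -0.13 in the low, middle and high class, and all ranges overlap.

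The genes on other chromosomes that fell with class were led by Top2a and Irs4. Top2a, the topoisomerase that untangles chromosomes in dividing cells, lies on chromosome 11 and had -0.66, 0.72 and 1.30 in the low class, -2.12, 0.10 and 0.75 in the middle class and -1.75, -0.94 and 0.23 in the high class. Of 75 low arrays 66 lay above every high array. Its slope was -0.72 ± 0.040 (adjusted p = 9.62e-47), with steps of -0.71 ± 0.068 from low to middle and -0.73 ± 0.068 from middle to high, and the middle class did not pass as deviating from the mean of the outer classes (0.0085, adjusted p = 0.912). The other Top2a probe, looked at after its values were seen, had a slope of 0.21 ± 0.070 (adjusted p = 0.0125), so the probes of this gene were called in opposite directions. Irs4, an insulin receptor substrate on chromosome X, had -1.21, 0.66 and 1.26 in the low class, -2.38, 0.12 and 0.80 in the middle class and -2.21, -0.72 and 0.27 in the high class. The high class was the lowest, although its range ended inside those of the others. Its slope was -0.64 ± 0.038 (adjusted p = 3.94e-43) on its only probe. With the immune cell scores the slopes were -0.73 for Top2a and -0.64 for Irs4.

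The remaining genes that fell did so weakly, mostly in the upper step. Dppa4, a gene of pluripotent cells, fell by 0.14 ± 0.015 per class on a probe whose partner did not pass (adjusted p = 0.906). Ubxn1, Cdk4, Pard6a, Ubox5, Snrpn, Ighv7-4 and Tmem150a had slopes between -0.15 and -0.049. Of the 10 genes picked for falling, Top2a and Irs4 passed in the lower step, 10 in the upper step and 9 with the immune cell scores, Pard6a being the exception (adjusted p = 0.0629).

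Genes on other chromosomes that rose included several known from macrophages. Adgre1, Clec4a1 and Clec4a2, which are lectin receptors of myeloid cells, Ptpro, Lilrb4a, Mrc1, Folr2, Cd14 and the selenium carrier Selenop had slopes between 0.21 and 0.36. Adgre1, Mrc1 and Cd14 are on the macrophage list, so the immune cell scores take up their own change. Of the 10 genes picked for rising, 0 passed in the lower step (limma), 10 in the upper step and 1 with the immune cell scores. That one was 6430590A07Rik on chromosome 3, with medians of -0.74, -0.39 and 0.076 in the low, middle and high class and a slope of 0.38 ± 0.041 (adjusted p = 3.54e-15). Its medians lay beside the -0.72, -0.39 and 0.09 of Ifi203, and its other 2 probes did not pass (adjusted p = 0.201 and 0.206).

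Within a class, the level of Ifi202b still varied, and other probes were fitted on it in each class alone. Slopes here are log2 units per log2 unit of Ifi202b, and the classes differ in size (75, 168 and 76 arrays), so their counts are not set against each other. In the low class 2096 probes passed (9.04%, with 2.54% higher), in the middle class 9611 (41.4%, with 13.9% higher) and in the high class 234 (1.01%, with 0.858% higher). Type I interferon probes were called higher in 1, 23 and 21 of 35 cases in the low, middle and high class, with median slopes of 0.21, 0.32 and 0.42. Macrophage probes were called higher in 8, 18 and 11 of 20 cases, with median slopes of 0.58, 0.70 and 0.55. The difference of slopes between the high and low classes passed for 0 probes (0%) by limma. At an unadjusted p under 0.05 by limma were 3426 probes (14.8%), among them 10 of the 35 type I probes. Between the middle and low classes the slopes differed for 4314 probes (18.6%). Among them were 4 of the 35 type I interferon probes, which is under the share over all probes. Of the 15 linked genes 2 passed within the low, 8 within the middle and 3 within the high class. Ppox had nearly the same slope in each, -0.18, -0.18 and -0.19 from low to high (adjusted p = 0.0128, 1.87e-05 and 0.0174). Usf1 did not pass in any class, with -0.055, 0.043 and 0.14 (adjusted p = 0.632, 0.578 and 0.219). Ifi204 had 0.54, 0.86 and 0.69 on its most responsive probe (adjusted p = 0.0506, 7.4e-28 and 5.06e-12).

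Of 4 measured genes tied to Ifi202b by its known biology, only Hsd11b1 passed over the classes. Hsd11b1, which activates glucocorticoids and lies 146 genes after Ifi202b, had a slope of 0.14 ± 0.042 (adjusted p = 0.00719) and was lowest in the middle class, with medians of -0.18, -0.34 and 0.064 from low to high. This call ended with the immune cell scores, where its slope was -0.047 (adjusted p = 0.45). Myod1, the muscle determination factor, had a slope of -0.26 ± 0.11 and Cdkn1a, a cell cycle inhibitor, of 0.081 ± 0.034, both with an adjusted p of 0.0504. Myog, a factor of late muscle differentiation, had 0.048 ± 0.040 (adjusted p = 0.34). Aim2 and Mdm2 were not analysed here.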

How the data were processed

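RNA of F2 mouse muscle was measured against a pool on 2-colour arrays. The deposited table of the authors gives 1 log10 ratio per probe and array, which was converted to log2. Neither the log base nor the direction is stated in the sources used here; values end at exactly -2 and 2, a limit read as log10, and the Y-linked Eif2s3y gave the direction. The authors' background correction and normalization are not given in the sources used here.

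Of 23382 probes, 13639 had 1 gene symbol on the platform table, 48 several and 9695 none. Names were kept for 12647 probes of 10831 genes matched to RefSeq (GRCm38.p6), which also gave gene order along chromosome 1. Probes with a value on 80% of arrays were tested, which left out 192. Blank values (0.654%) stayed missing.

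R 4.3.3 with limma 3.58.1 (lmFit, eBayes) fitted each probe on class, either as 0, 1 and 2 or as 3 levels, with Benjamini-Hochberg adjustment over 23189 probes and a threshold of 0.05. The fit was also run on simulated data in which each probe varied independently. Variation shared by probes across arrays was not simulated, so that run does not bear on the counts given here. Scores for macrophages (17 genes), B cells (9) and T cells (11) were means of z-scored genes off chromosome 1. Separate steps between classes and fits within classes were added after the data were seen. Precision is limited by the number of arrays, and p-values measure the spread between arrays, of which 2 share the animal number 227.

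The classes, their members and the 22 gene lists (283 of 376 genes measured) were chosen with earlier results of these data known. Named were the Ifi200 family, the 15 chromosome 1 genes and, on other chromosomes, the 10 rising and 10 falling genes with the largest statistics, the 4 largest and 2 smallest slopes of each interferon and antigen list, the leading gene of other lists, the 8 largest deviations of the middle class and genes of the known biology of Ifi202b. Alternatives changed scaling, filters, arrays and covariates, and their effect is given at the end.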

Additional observations from a re-analysis of the deposited data

How the results depend on the processing

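The count of 8375 called class slopes became 556 with the macrophage, B cell and T cell scores as covariates, 4220 with the type I interferon score, 4929 without the 57 arrays above the lymphocyte gap, 3338 with the first principal component and 4061 with probes of a gene averaged, where fewer features are tested. Within 100 genes of Ifi202b the 68 calls became 28 with the immune cell scores. On other chromosomes the 4312 became 213, 2146, 2597 and 1730 with the immune scores, the interferon score, the left-out arrays and the component. The 21 type I probes called higher became 12 with quantile normalization, 13 with the outer classes alone, 0 with the immune scores, 4 with the interferon score, which is made of 33 of these genes and so takes up their own change, 0 with the component and 11 with animal blocks. Over all probes the 8375 became 5797 with quantile normalization, 8088 with the outer classes alone and 5960 with animal blocks. The 10578 deviations of the middle class became 1085 without the arrays above the gap and 266 with the immune scores.

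Slopes changed sign for these genes, and the cause was not tested. With the immune scores they were -0.0058 for Rtp4, -0.079 for Irf7, -0.14 for Cxcl9, -0.078 for Cxcl10, -0.013 for Tgtp1, -0.0095 for B2m, -0.029 for Psmb8, -0.033 for Psmb9, 0.024 for Tapbp, -0.035 for H2-Eb1, -0.018 for Gbp2 and -0.047 for Hsd11b1. With the component they were -0.069 for Irf7, -0.064 for Cxcl9, -0.083 for Cxcl10, -0.017 for Irf8, -0.0093 for Tgtp1, -0.023 for Psmb8, -0.038 for Psmb9, 0.032 for Tapbp and -0.037 for Cd2. With the interferon score they were -0.018 for Irf7, -0.0074 for Cxcl10 and 0.0093 for Tapbp, and without the arrays above the gap 0.0023 for Tapbp. With probes averaged they were 0.14 for Ifi203, 0.26 for Ifi204, 0.021 for Iigp1 and -0.26 for Top2a, against probes of the opposite sign. Of 82 named slopes, 78 kept sign and side of the threshold with array medians subtracted, 70 with quantile normalization, 71 without the arrays above the gap, 67 with the interferon score, 56 with the component and 37 with the immune scores, under which 30 lost their call and 12 changed sign. Under the other settings between 72 and 82 did so, with 75 where probes with blanks were left out. Signal over background is not part of the ratios, so dim probes could not be set apart. No paired analysis was possible because all arrays form 1 group and no replicate numbers are shared between groups.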

Other observations

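Among all probes 12.9% were higher and 23.2% lower over the classes. From low to middle 0.664% passed, and from middle to high 19.0% were higher and 40.1% lower. With the immune cell scores 2.40% passed over the classes. Of 28 cell cycle probes 14 were higher and 2 lower over the classes, 0 higher and 1 lower from low to middle, and 18 higher and 3 lower from middle to high, and with the immune cell scores 0 were higher and 1 lower over the classes. Of 16 adipocyte probes 6 were higher and 2 lower over the classes, with Acaca, the enzyme that commits carbon to fatty acid synthesis, among the lower at -0.071 ± 0.024 (adjusted p = 0.013). The mean ratio of the adipocyte list had medians of -0.25, -0.39 and -0.10 in the low, middle and high class, the same order as the macrophage list. Of 12 myogenic probes 0 were higher and 4 lower over the classes, which is near the share over all probes. The largest statistic was that of Mef2a, a muscle transcription factor, at -0.055 ± 0.015 (adjusted p = 0.00203), and with the immune cell scores 1 of the 12 was higher and 0 were lower.

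Genes of distal chromosome 1 that are known from strain differences and disease were gathered in a list of 30, of which 26 were measured with 30 probes. Over the classes 13 were higher and 7 lower, beside 12.9% and 23.2% of all probes, so the lower ones are at the share over all probes. From low to middle 3 were higher and 2 lower, where 0.664% of all probes passed. With the immune cell scores 5 were higher and 3 lower, where 2.40% of all probes passed. Of 9 glucocorticoid probes 2 were higher and 1 lower over the classes, and 1 was higher and 4 lower from middle to high. From middle to high 19.0% of all probes were higher and 40.1% lower, so the lower ones are near the share over all probes. Fkbp5, a co-chaperone of the receptor, rose by 0.18 ± 0.048 per class (adjusted p = 0.00269) and had medians of -0.27, 0.017 and 0.11 from low to high, and it also passed with the immune cell scores (slope 0.18, adjusted p = 0.0221). Kdm5d, a Y-linked gene, had a slope of -0.33 ± 0.15 (adjusted p = 0.0757) without those scores and -0.53 with them (adjusted p = 0.0348). Of the 2 Y-linked probes listed and measured, 2 were called lower with the scores and 0 without them. Eif2s3y was above -2 on 58.7% of low, 46.4% of middle and 43.4% of high arrays. No fit held it together with the scores, so the part of sex in the slopes with the scores was not tested.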
